A study of Mus musculus with 12 samples.

Results

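Threonine and glycine catabolism was followed through 7 genes, Tdh, Gcat, Gldc, Amt, Gcsh, Dld and Shmt1, chosen by name for their enzymes and linked by Ensembl gene ID to the deposited counts. They are 7 of the 21728 genes listed in any library, each is protein coding, each was listed in all 12 libraries, and all 7 passed the filter on low counts in every comparison. The libraries came from mouse cells (C57BL/6, Blimp1-mVenus; Stella-ECFP reporters of Prdm1 and Dppa3) that were led in culture from embryonic stem cells in 2i and LIF to epiblast-like cells (EpiLCs, a counterpart of the epiblast before gastrulation) and then, in aggregates, to primordial germ cell-like cells (PGCLCs, a counterpart of the earliest germ cells). Strand-specific mRNA libraries were sequenced, and the comparisons asked how expression differed between these stages and with bisphenol A (BPA), a plastics monomer that binds oestrogen receptors.

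There were 4 groups of 3 libraries. Untreated EpiLCs were cultured for 48 h and are described as water controls. BPA EpiLCs received 100 nM BPA 24 h after seeding and were kept in it for 24 h. Untreated PGCLCs and PGCLCs of the 100 nM BPA arm were taken on day 5 and sorted for both reporters, whereas EpiLCs were harvested whole, so stage and sorting cannot be told apart. Library names take different forms in EpiLCs, untreated PGCLCs and BPA-arm PGCLCs, so a difference in library handling cannot be told apart from the stage difference or, in PGCLCs, from BPA. The sources used here describe the exposure of EpiLCs only and do not say if the PGCLC medium held BPA. For PGCLCs, the words under BPA, with BPA, rose and fell below stand only for the BPA arm set against untreated PGCLCs. All 4 groups share the strain and both reporter alleles, and the labels do not say whether replicates were separate cultures, so every p-value measures only the spread between these libraries.

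Threonine dehydrogenase (Tdh) oxidises threonine in mitochondria to an unstable amino-ketone, which the ligase encoded by Gcat cleaves with coenzyme A into glycine and acetyl-CoA. The glycine cleavage system then splits glycine: Gldc removes carbon dioxide, Gcsh is the lipoyl-bearing carrier, Amt passes the remaining carbon to tetrahydrofolate, and Dld re-oxidises the lipoyl arm, a task it also has in the pyruvate, oxoglutarate and branched-chain keto acid dehydrogenases. Shmt1 interconverts serine and glycine in the cytosol. Mouse embryonic stem cells are known for high Tdh and for a dependence on threonine, which feeds one-carbon units and S-adenosylmethionine.

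The stretches of DNA just before the start sites of 3 glycine cleavage genes and of the ligase gene are shown because these 4 genes differed, or had libraries that stood apart, in the BPA arm of PGCLCs. They are the bases within 250 upstream of the start in the RefSeq table (GRCm38.p6) that no annotated exon covers, each read 5′ to 3′ on the strand of its gene, and capitals mark CCAAT or its complement ATTGG.
Gcsh: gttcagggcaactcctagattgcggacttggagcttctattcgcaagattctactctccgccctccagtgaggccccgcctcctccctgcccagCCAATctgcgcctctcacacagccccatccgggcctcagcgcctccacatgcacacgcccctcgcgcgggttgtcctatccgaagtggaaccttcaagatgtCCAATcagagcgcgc
Amt: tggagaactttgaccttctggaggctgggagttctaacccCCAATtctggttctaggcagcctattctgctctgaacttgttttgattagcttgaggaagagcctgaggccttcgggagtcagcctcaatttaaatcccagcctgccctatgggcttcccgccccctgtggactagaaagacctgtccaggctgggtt
Gldc: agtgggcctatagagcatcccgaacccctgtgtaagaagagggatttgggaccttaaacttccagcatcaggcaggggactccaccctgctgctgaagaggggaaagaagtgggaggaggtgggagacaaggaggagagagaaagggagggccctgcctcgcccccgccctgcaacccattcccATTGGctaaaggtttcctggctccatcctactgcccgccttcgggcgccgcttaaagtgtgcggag
Gcat: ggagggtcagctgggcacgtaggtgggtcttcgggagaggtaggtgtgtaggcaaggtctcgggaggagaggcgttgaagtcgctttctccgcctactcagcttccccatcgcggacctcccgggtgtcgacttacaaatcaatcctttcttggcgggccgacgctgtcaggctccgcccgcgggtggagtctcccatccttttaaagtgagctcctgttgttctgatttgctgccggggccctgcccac
They lie at chr8:116993538-116993748 (Gcsh, minus strand), chr9:108296655-108296852 (Amt, plus strand), chr19:30175442-30175691 (Gldc, minus strand) and chr15:79030624-79030873 (Gcat, plus strand). In the whole windows of 250 bases, CCAAT was found on either strand in 5 of the 6 members with a window in the table (all but Gcat), and in 33.9% of all 32851 windows. The other motifs searched on both strands were CACGTG, TCAAGGTCA and TGATGNAAT, each found in none of the 6 windows, and GGGCGG, found in all but the window of Dld. They were found in 6.02%, 0.387%, 0.816% and 32.7% of all windows, in that order. The window of Shmt1 (chr11:60811266-60811515, minus strand) lies inside the annotated gene, which spans 60788104 to 60811718. Its CCAAT and GGGCGG are counted above but are not upstream of the annotated start.

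The libraries held 11785338 to 34309195 counts in genes and listed 14323 to 17468 genes. Marker levels followed the labels in part. The summed level of 8 germ cell markers was 99.6 to 108 counts-per-million (CPM) in EpiLC libraries and 975 to 1340 in PGCLC libraries, and that of 12 naive pluripotency markers was 141 to 148 and 2277 to 2828. The germ cell markers include Prdm1 and Dppa3, whose reporters PGCLCs were sorted on, so that part of the sum is no check of the labels. Prdm14 is in both lists. The 8 formative markers, which should define EpiLCs, summed to 1333 to 1595 CPM in EpiLC libraries and 391 to 486 in PGCLC libraries. Between untreated stages 6 of the 8 were lower in PGCLCs and 1 was higher by edgeR. Dnmt3b was higher in EpiLC libraries (522 to 718 against 182 to 219 CPM). Fgf5 overlapped between the stages (4.77 to 7.38 CPM in EpiLC libraries, 2.63 to 13.8 in PGCLC libraries). Otx2 was lower in EpiLC libraries (10.1 to 12.3) than in PGCLC libraries (60.4 to 84.7). A pair of libraries stood apart from their replicates. Untreated EpiLC replicate 3, whose description carries the number of replicate 2 and which was placed by its title, had 13.0% of its counts in ribosomal protein genes against 7.62% to 8.60% in the other EpiLC libraries. Replicate 3 of the BPA arm of PGCLCs had 2987 CPM in 13 endoderm markers, against 6533 and 6569 in its replicates and 886 to 1371 in untreated PGCLCs.

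Of all 7 genes, Tdh (ENSMUSG00000021953, chromosome 14, 63492347 to 63509092, minus strand, mm10) differed most between the stages. It stood at 17.4, 16.2 and 20.5 CPM in untreated EpiLCs and at 278, 247 and 279 CPM in untreated PGCLCs. In the BPA libraries it stood at 13.5, 16.0 and 16.8 CPM in EpiLCs and at 276, 273 and 279.7 CPM in PGCLCs. Every PGCLC library was thus far above every EpiLC library, and no library of any group came between. On the log2 scale the stage difference was 3.90 ± 0.12 (standard error; 14.9-fold; edgeR quasi-likelihood with Benjamini-Hochberg adjustment, adjusted p = 8.09e-10) without BPA and 4.16 ± 0.12 (17.9-fold, edgeR adjusted p = 6.16e-10) with it. In bulk libraries, fewer cells of a type and less RNA per cell cannot be told apart.

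**Figure D1:**
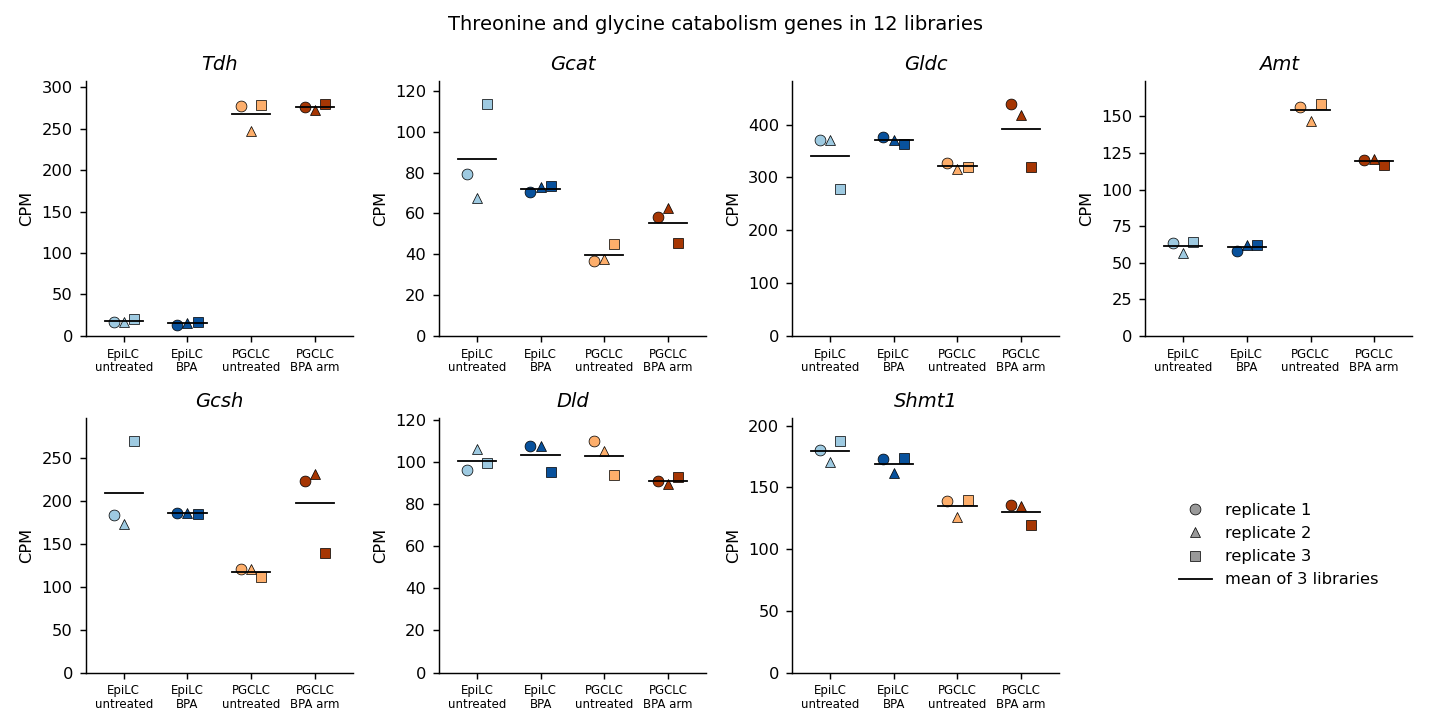
Expression of each gene in each of the 12 libraries, as CPM on linear axes that start at 0, by group, with symbols for replicates and a line at the mean of 3 libraries. Tdh separates the stages, Amt is high in PGCLCs and lower in their BPA arm, and the third replicate of untreated EpiLCs or of BPA-arm PGCLCs sits apart for Gcsh, Gcat and Gldc.

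Tdh did not pass the test for BPA in either stage. The log2 difference was -0.20 ± 0.14 in EpiLCs (95% interval -0.53 to 0.13, edgeR adjusted p = 0.943) and 0.06 ± 0.06 in PGCLCs (-0.08 to 0.20, edgeR adjusted p = 0.636). An antisense gene, Gm17232, shares 2.52% of the exon bases of Tdh and was listed in 6 libraries, and the strand setting of the counting was not given in the sources used here.

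Gcat (ENSMUSG00000006378, chromosome 15, 79030874 to 79038353, plus strand), the ligase that takes the product of Tdh, went the other way between the stages. It stood at 79.1, 67.6 and 114 CPM in untreated EpiLCs and at 36.6, 37.5 and 45.1 CPM in untreated PGCLCs. It stood at 70.4, 72.8 and 73.3 CPM in BPA EpiLCs and at 58.2, 62.6 and 45.4 CPM in the BPA arm of PGCLCs. All EpiLC libraries were above all PGCLC libraries. The stage difference was -1.12 ± 0.18 without BPA (log2, 0.459-fold, edgeR adjusted p = 0.000261) and -0.38 ± 0.18 with BPA (edgeR adjusted p = 0.0876), of which only the first passed the test. The level of Gcat carries an annotation limit: a second gene of the same symbol on the same strand (ENSMUSG00000116378) shares 47.5% of its exon bases and is listed in no library.

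The order of both threonine genes was thus opposite in the stages. On levels per kilobase of exon, the ratio of Gcat to Tdh was 5.21 ± 0.76 (SD, n = 3) in untreated EpiLCs and 0.163 ± 0.017 in untreated PGCLCs. It was 5.16 ± 0.50 in BPA EpiLCs and 0.220 ± 0.038 in the BPA arm of PGCLCs. The length of Gcat includes the 47.5% of exon bases shared with the second gene of its symbol. If reads there went uncounted, which was not tested, all these ratios would be too low.

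Within PGCLCs, the BPA libraries held more Gcat than the untreated ones, by 0.49 ± 0.15 on the log2 scale (95% interval 0.16 to 0.83), and the groups did not overlap, but the difference missed the threshold (edgeR adjusted p = 0.0596). It passed in edgeR with library size alone (adjusted p = 0.0467), no filter (0.0295), a filter at 1 CPM (0.0391) or missing genes as 9 counts (0.0443), and in limma-trend (0.0383) and DESeq2 (0.0157), at log2 differences of 0.47 to 0.50. It missed it in edgeR with RLE factors (adjusted p = 0.0561), the replicate block (0.115) or 1 fit of 12 libraries (0.130), and in limma voom (0.0681). The gap rested on replicates 1 and 2 of the BPA arm. Replicate 3 of that arm, at 45.36 CPM, lay just above the highest untreated library, at 45.10 CPM. Without replicate 3 the difference was 0.62 (edgeR adjusted p = 0.0108). In EpiLCs the difference was -0.24 ± 0.19 (-0.69 to 0.20), and -0.03 without untreated replicate 3.

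Gldc (ENSMUSG00000024827, chromosome 19, 30098447 to 30175429, minus strand), the decarboxylase that starts glycine cleavage, did not pass the test between the stages. It stood at 371, 372 and 279 CPM in untreated EpiLCs and at 327, 316 and 319.8 CPM in untreated PGCLCs. It stood at 376, 371 and 363 CPM in BPA EpiLCs and at 439, 419 and 320.1 CPM in the BPA arm of PGCLCs. The stage difference was -0.09 on the log2 scale without BPA (95% interval -0.37 to 0.20) and 0.09 with it (-0.20 to 0.37), so differences beyond 0.37 in either direction lay outside both intervals. With every gene missing from a library counted as 9, the stage difference was 0.15 without BPA and 0.37 with it (edgeR adjusted p = 0.430 and 0.0439), the second past the threshold. Under BPA the PGCLC difference was 0.30 ± 0.11 (edgeR adjusted p = 0.115), with overlapping groups. Replicates 1 and 2 of the BPA arm were above every other library of the study and replicate 3 was within the range of untreated PGCLCs. Without replicate 3 the difference was 0.44 (edgeR adjusted p = 0.00100).

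Gcsh (ENSMUSG00000034424, chromosome 8, 116981810 to 116993537, minus strand), the carrier protein, was the member that rose in PGCLCs of the BPA arm. It stood at 120.3, 120.3 and 112 CPM in untreated PGCLCs and at 223, 231 and 139 CPM in the BPA arm, so the groups did not overlap. The difference was 0.77 ± 0.18 on the log2 scale (1.70-fold, 95% interval 0.36 to 1.18, edgeR adjusted p = 0.0284). Replicates 1 and 2 of the BPA arm averaged 1.94-fold and replicate 3 stood at 1.18-fold of the untreated mean. The call was lost without any 1 of the other 5 PGCLC libraries (log2 0.64 to 0.77, edgeR adjusted p = 0.0916 to 0.110), and without replicate 3 of the BPA arm the difference was 0.97.

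Between the stages Gcsh passed the test in untreated cells and not in BPA cells. Gcsh stood at 184, 173 and 269.7 CPM in untreated EpiLCs and at 186, 185 and 185 CPM in BPA EpiLCs. Untreated PGCLCs were lower than untreated EpiLCs by a log2 difference of -0.83 ± 0.19 (0.563-fold, edgeR adjusted p = 0.00335), and no library overlapped. In the BPA libraries the stages overlapped, and the difference was 0.10 ± 0.19 (-0.33 to 0.52). Chromosome 8, which carries Gcsh, had the highest median of 20 chromosomes in the PGCLC comparison of BPA (0.19 over 913 genes, against 0.01 over all genes) and the lowest in the untreated stage comparison (-0.31, against 0.07). Gcsh differed from these chromosome medians by 0.57 and -0.52, and the 10 tested genes nearest to it had a median of 0.06 under BPA in PGCLCs. The part of the chromosome in the result was not tested.

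Amt (ENSMUSG00000032607, chromosome 9, 108296853 to 108302302, plus strand), the aminomethyltransferase, was, beside Tdh, the member that was higher in PGCLCs, and the one that fell in their BPA arm. It stood at 63.6, 56.9 and 63.9 CPM in untreated EpiLCs and at 157, 147 and 158 CPM in untreated PGCLCs. It stood at 57.9, 62.4 and 62.3 CPM in BPA EpiLCs and at 120.4, 121 and 117 CPM in the BPA arm of PGCLCs. The 4 groups thus fell on 3 levels: both EpiLC groups overlapped at the bottom, BPA-arm PGCLCs were above them and untreated PGCLCs were above those, with no overlap.

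The stage difference of Amt was 1.33 ± 0.08 on the log2 scale without BPA (2.51-fold, edgeR adjusted p = 1.38e-07) and 0.97 ± 0.08 with it (1.96-fold, edgeR adjusted p = 1.35e-06). In the BPA arm of PGCLCs it was lower than in untreated PGCLCs by 0.35 ± 0.06 (0.782-fold, edgeR adjusted p = 0.0104). All 3 BPA libraries shared this lower level, including replicate 3, which stood at 0.760-fold of the untreated mean against 0.783-fold for the other two. The call was lost without replicate 1 (edgeR adjusted p = 0.0579) or replicate 2 (0.0548) of the BPA arm, at log2 differences of -0.36 and -0.37.

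Dld (ENSMUSG00000020664, chromosome 12, 31331277 to 31351453, minus strand), the dehydrogenase shared with other complexes, had the smallest range over the 12 libraries of all 7 genes, with the highest at 1.23-fold of the lowest. Its group means were 101 ± 5.07 CPM in untreated EpiLCs, 103 ± 7.24 in BPA EpiLCs, 103 ± 8.26 in untreated PGCLCs and 91.1 ± 1.64 in the BPA arm of PGCLCs (SD, n = 3). Between stages it did not pass the test, at 0.03 (log2, -0.17 to 0.23) without BPA, a sign that turned under another scaling of the libraries (-0.03), and -0.18 (-0.38 to 0.02) with it. The difference with BPA passed under that scaling (-0.24, edgeR adjusted p = 0.0347) and turned to 0.11 with missing genes as 9 counts (0.386), where the difference without BPA passed (0.27, 0.0393). In PGCLCs all 3 BPA libraries, at 91.1, 89.5 and 92.8 CPM, were below the untreated ones, at 110, 105 and 93.9 CPM. That difference of -0.16 ± 0.08 did not pass the test (edgeR adjusted p = 0.210).

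Shmt1 (ENSMUSG00000020534, chromosome 11, 60788104 to 60811718, minus strand), the serine and glycine interconverting enzyme of the cytosol, was lower in PGCLCs in both arms. It stood at 180.2, 170.4 and 188 CPM in untreated EpiLCs and at 139, 126 and 139.7 CPM in untreated PGCLCs, without overlap. It stood at 173, 161 and 174 CPM in BPA EpiLCs and at 136, 135 and 119.9 CPM in the BPA arm of PGCLCs, again without overlap. The stage differences were -0.41 ± 0.09 (log2, edgeR adjusted p = 0.00173) without BPA and -0.38 ± 0.09 (edgeR adjusted p = 0.00270) with it. They were -0.17 and -0.09, neither past the threshold (edgeR adjusted p = 0.229 and 0.481), when every gene missing from a library was counted as 9. Under BPA in PGCLCs the difference was -0.04 ± 0.08 (-0.22 to 0.14). The gene on the other strand, Smcr8, shares 4.74% of its exon bases.

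**Figure D2:**
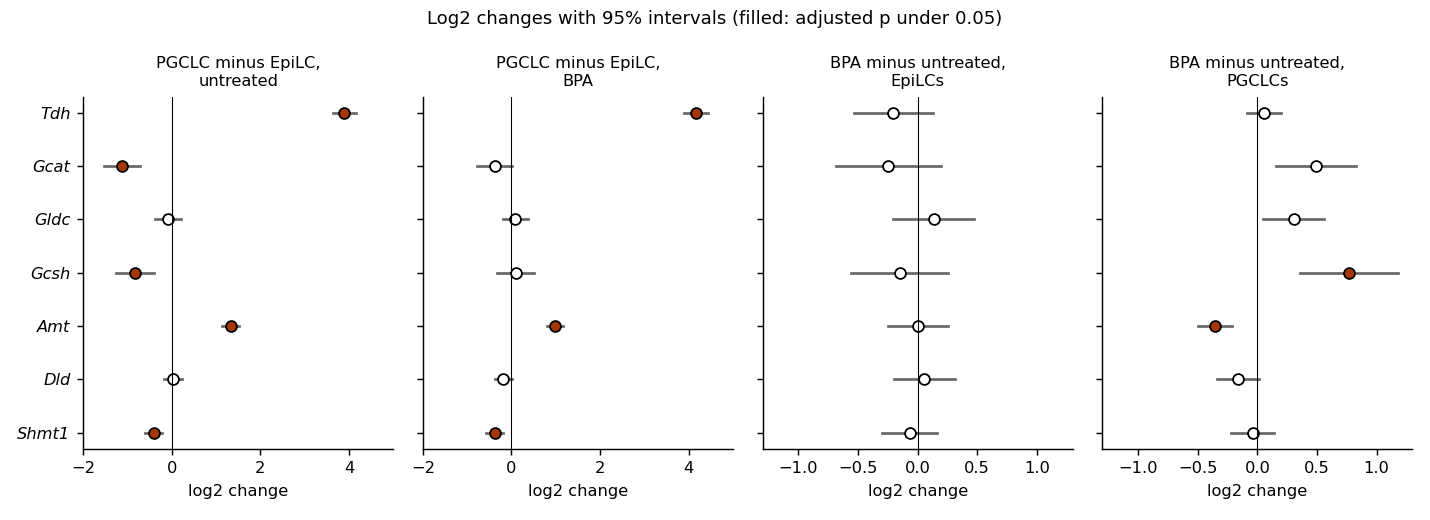
Log2 change of each gene in each of 4 comparisons, with 95% intervals from edgeR and filled points where the adjusted p is under 0.05. Tdh and Amt lie right of 0 in both stage comparisons, Gcsh and Amt are filled on opposite sides in the PGCLC comparison of BPA, and no point is filled in EpiLCs.

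Counted together, 5 of the 7 genes passed the test between untreated stages, 2 higher in PGCLCs (Tdh and Amt) and 3 lower (Gcat, Gcsh and Shmt1), where 55.6% of all 17608 genes tested passed. Between the BPA stages 3 of 7 passed, Tdh and Amt higher and Shmt1 lower, where 57.5% of all genes passed. Libraries did not overlap for 5 of 7 genes in each, beside 60.3% and 73.2% of all genes. Higher calls made up 30.4% and lower calls 25.2% of all genes without BPA, and 32.5% and 25% with it. Shares this near to those of all genes show nothing particular to the 7. Their median log2 difference was -0.09 without BPA and 0.09 with it, beside 0.07 and 0.13 over all genes.

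For BPA in PGCLCs 2 of 7 passed, Gcsh higher and Amt lower, where 13.9% of 16753 genes passed (8.13% higher, 5.72% lower). Groups did not overlap for 4 of 7 (Gcat, Gcsh, Amt and Dld), beside 35% of all genes, and the median was 0.06, beside 0.01 over all genes. In BPA EpiLCs 0 of 7 passed, where 0% of 15252 genes passed by edgeR. At an unadjusted p under 0.05 there were 118 genes in EpiLCs, none of them a member, and DESeq2 called 16. The 118 are fewer than evenly spread p-values would give. The spread in EpiLCs includes untreated replicate 3, which stood apart from its replicates, and the reason for the low number was not tested. The lack of calls there does not show that BPA had no effect. The 7 differences ran from -0.24 to 0.13 with a median of -0.07, and no member's groups separated, beside 5.94% of all genes.

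Whether the BPA difference itself differed between the stages was tested as an interaction, which 1.32% of 17608 genes passed (1.01% higher, 0.312% lower) and 0 of the 7 by edgeR, with 2449 genes at an unadjusted p under 0.05. The estimate was 0.92 ± 0.27 for Gcsh (log2, edgeR adjusted p = 0.143), 0.74 ± 0.25 for Gcat (0.203) and -0.35 ± 0.12 for Amt (0.185), and those 3 had unadjusted p of 0.00563, 0.0132 and 0.0107. DESeq2 called Gcsh (adjusted p = 0.0394) and Amt (0.0202). Without replicate 3 of the BPA arm of PGCLCs, edgeR called Gcsh (1.12, adjusted p = 0.0160).

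The summed endoderm markers were higher in the BPA arm of PGCLCs and differed within it, but single markers did not all follow the sum. Of the 13, 6 were higher and 0 lower in that arm by edgeR, with log2 differences from -0.45 to 6.01. Afp stood at 46.4, 24.5 and 29.2 CPM in untreated PGCLCs and at 2527, 2486 and 1365 CPM in the BPA arm. In replicate 3 of that arm Afp, Ttr, Apoa1, Foxa2, Amn and Dab2 were above every untreated PGCLC library. Gata4 and Gata6 were within the untreated range. Sox17 (2.35 CPM), Sox7 (2.29), Hhex (8.74), Lama1 (50.3) and, barely, Cubn (462.9 against at least 463.7) were below every untreated library. Replicate 3, with the lowest endoderm sum of that arm, also had the lowest Gcsh, Gldc, Gcat, Shmt1 and Amt of that arm and the highest Tdh and Dld. Amt, Tdh and Dld had nearly the same level in all 3 libraries. Germ cell markers summed to 975 to 1095 CPM in the BPA arm against 1191 to 1340, and naive markers to 2277 to 2365 against 2781 to 2828. Trophoblast markers summed to 315 to 414 against 242 to 292, formative markers to 429 to 486 against 391 to 419, neuroectoderm markers to 74.9 to 83.1 against 96.9 to 101 and stromal markers to 81.8 to 146 against 65.3 to 87.1. Mesoderm markers summed to 130 to 142 against 117 to 151 (Mesp1 and Msgn1 at 0 throughout) and blood and endothelial markers to 208 to 247 against 206 to 230.1. The part of other cell types in the differences of the members was not tested. In EpiLC libraries the endoderm sum was 21.8 to 28.7 CPM, with Afp, Ttr, Gata6 and Sox17 at 0.

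**Figure D3:**
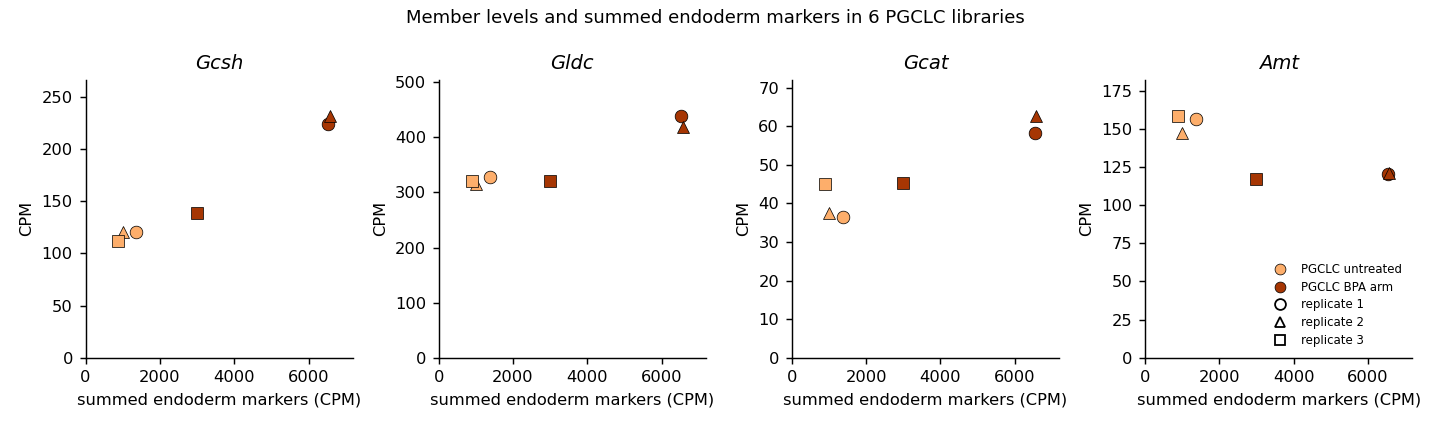
Level of Gcsh, Gldc, Gcat and Amt (CPM) against the summed level of 13 endoderm markers (CPM) in the 6 PGCLC libraries, coloured by arm with symbols for replicates, both axes linear from 0. BPA replicates 1 and 2 lie at the upper right for Gcsh, Gldc and Gcat and replicate 3 lies between them and the untreated libraries on the endoderm axis, while all 3 BPA libraries have about the same Amt.

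Compared per kilobase of exon, the order of the 7 genes differed between the stages. In untreated EpiLCs Gcsh led with 132 CPM per kb, followed by Gldc with 55.9, Shmt1 with 46.2, Gcat with 36.4, Dld with 27.3, Amt with 25.2 and Tdh with 6.89. The libraries of Gldc overlapped those of Shmt1, Shmt1 those of Gcat, Gcat those of Dld, and Dld those of Amt, so these neighbours did not differ beyond their spread. BPA EpiLCs had the same order, from 117 for Gcsh, 60.7 for Gldc and 43.6 for Shmt1 to 30.3 for Gcat, 28.1 for Dld, 25.0 for Amt and 5.91 for Tdh, with no overlap between neighbours. In untreated PGCLCs Tdh led with 103 CPM per kb, followed by Gcsh with 74.4, Amt with 63.2, Gldc with 52.7, Shmt1 with 34.8, Dld with 28.0 and Gcat with 16.7, and no neighbours overlapped. In the BPA arm of PGCLCs Gcsh, at 125, was again first by its mean, but its libraries spanned 88.0 to 147 and so included Tdh at 106. Gldc followed with 64.4, Amt with 49.0, Shmt1 with 33.5, Dld with 24.7 and Gcat with 23.2, of which only Dld and Gcat overlapped. The annotation limit of Gcat, with 47.5% of its exon bases shared, bears on its place in all 4 groups. Its level per kb would be too low if reads in those bases went uncounted, which was not tested.

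**Figure D4:**
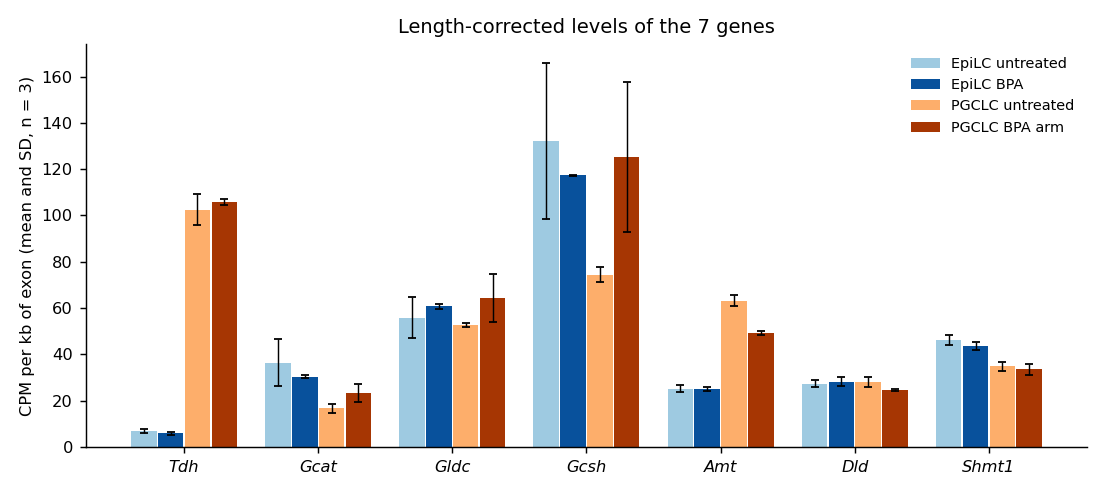
Length-corrected level of each gene in each group as CPM per kb of exon, bars for the mean and whiskers for the SD of 3 libraries, on an axis from 0. Tdh is the lowest bar of EpiLCs and the highest of untreated PGCLCs, and the whiskers of Gcsh are wide in untreated EpiLCs and in the BPA arm of PGCLCs.

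The ratios between glycine cleavage transcripts also differed between the stages and between the PGCLC arms. The ratio of Amt to Gldc, per kb, was 0.461 ± 0.099 in untreated EpiLCs, 0.411 ± 0.023 in BPA EpiLCs, 1.20 ± 0.04 in untreated PGCLCs and 0.774 ± 0.12 in the BPA arm (SD, n = 3). Its libraries separated the 2 PGCLC arms and both of them from EpiLCs. The ratio of Amt to Gcsh was 0.852 ± 0.064 in untreated PGCLCs and 0.349, 0.339 and 0.547 in the 3 libraries of the BPA arm, beside 0.153 to 0.225 in EpiLC libraries.

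Genes that supply or use the same carbon were read from lists made for this pathway. Their counts stand beside calls in 55.6% (30.4% higher, 25.2% lower) of all genes between untreated stages, 57.5% (32.5% and 25%) between BPA stages and 13.9% (8.13% and 5.72%) for BPA in PGCLCs. With 11 to 18 genes to a list, nothing particular to a list was read from its count. Calls of single related genes were not followed with libraries left out. For BPA in PGCLCs, 2321 genes were called with all libraries, 677 without BPA-arm replicate 1 and 668 without replicate 2. Serine synthesis and folate one-carbon genes were mostly lower in untreated PGCLCs than in untreated EpiLCs: 11 of 18 fell and 1 rose, with a median of -0.64 against 0.07 over all genes. Phgdh, the first enzyme of serine synthesis, had means of 454 ± 79.1 and 95.1 ± 10.5 CPM (log2 -2.26, edgeR adjusted p = 1.47e-07). Slc19a1, the reduced folate carrier, had 55.8 ± 0.98 and 16.0 ± 3.37 CPM (log2 -1.80, edgeR adjusted p = 1.07e-06). In the BPA stages 11 fell and 2 rose, among them Mthfd2, a mitochondrial folate enzyme, which went from 337 ± 18.6 to 86.0 ± 3.47 CPM (log2 -1.97).

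In the BPA arm of PGCLCs, 4 of 17 serine and folate genes tested rose and 1 fell, with a median of -0.06. Folr1, a folate receptor, rose from 51.2 ± 9.04 to 118 ± 39.3 CPM (log2 1.20 ± 0.25, edgeR adjusted p = 0.0199) and Phgdh from 94.4 ± 10.4 to 147 ± 20.9 CPM (log2 0.64 ± 0.12, edgeR adjusted p = 0.0149). Both remaining steps of serine synthesis, named here after their values were seen, were the other rises, Psph by 0.54 and Psat1 by 0.34, and Mthfd1 fell by 0.30.

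The methionine and S-adenosylmethionine cycle, to which one-carbon units are passed, was lower in untreated PGCLCs for 8 of 15 genes and higher for 3. Ahcy, which clears S-adenosylhomocysteine, had 552 ± 19.4 and 143 ± 0.50 CPM (log2 -1.95, edgeR adjusted p = 3.61e-09), and Srm, the spermidine synthase, 405 ± 126 and 128 ± 4.73 CPM (log2 -1.67). In the BPA stages 10 fell and 3 rose, Ahcy by a log2 difference of -2.03 and Gnmt, which methylates glycine, of -1.72. In PGCLCs, 2 of 15 fell with BPA and 0 rose. Cth, which makes cysteine, fell from 48.9 ± 3.86 to 29.2 ± 4.56 CPM (log2 -0.74 ± 0.13, edgeR adjusted p = 0.0110), and Sms, the spermine synthase, by 0.33 ± 0.09. Sms lies on the X chromosome, whose 623 genes had the lowest median of 20 chromosomes in that comparison (-0.32, with 26.2% of its genes above 0), and the part of the chromosome in the result was not tested. Cth was also the only gene of the related lists past the test of the interaction (-0.83 ± 0.18, edgeR adjusted p = 0.0480).

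A further list held enzymes of other pathways that use threonine or that use or make glycine. Not all of these enzymes, Gclc among them, act on either amino acid. In this list 2 of 11 fell and 0 rose between untreated stages: Gatm, which starts creatine synthesis (log2 -1.59), and Gclc, of glutathione synthesis (-0.62). Between BPA stages 4 rose and 2 fell, with Gamt, the next creatine enzyme, at 1.54 and Gatm at -2.04. With BPA, 3 of 11 rose in PGCLCs and 0 fell. They were the glutathione enzymes Gss (25.8 ± 3.79 to 37.5 ± 3.52 CPM, log2 0.54, edgeR adjusted p = 0.0356) and Gclc (105 ± 2.98 to 144 ± 4.37 CPM, log2 0.46, edgeR adjusted p = 0.00409), and Pipox, a sarcosine oxidase named after its value was seen (0.34).

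Genes for removal of aminoacetone, a by-product of the Tdh reaction, and for acetyl-CoA and propionyl-CoA use rose in 5 and fell in 2 of 11 between untreated stages. Acss1, a mitochondrial acetyl-CoA synthetase, had 6.02 ± 1.03 and 32.0 ± 3.21 CPM (log2 2.40, edgeR adjusted p = 6.60e-07), and Aoc3, a copper amine oxidase, 1.23 ± 0.54 and 3.79 ± 0.69 CPM (log2 1.60). Between BPA stages 3 rose and 2 fell, with Aoc3 at 2.64 and Acss1 at 2.23. The PGCLC comparison of BPA had 1 rise of 11, Aoc3, from 3.76 ± 0.68 to 6.94 ± 0.75 CPM (log2 0.88 ± 0.22, edgeR adjusted p = 0.0366).

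Lipoylation genes and the other complexes that contain Dld rose in 4 and fell in 6 of 15 between untreated stages. Bckdha, of the branched-chain keto acid dehydrogenase, had a log2 difference of 1.38 and Lipt2, which transfers octanoate for lipoylation, of -0.76. Between BPA stages 2 rose and 8 fell, with Bckdha at 1.04 and Lipt2 at -0.90. Under BPA in PGCLCs 3 of 15 fell and 0 rose, with a median of -0.13 beside 0.01 over all genes. Pdha1, of pyruvate dehydrogenase, fell from 209 ± 12.2 to 159 ± 4.55 CPM (log2 -0.39 ± 0.06, edgeR adjusted p = 0.00867; it too lies on the X chromosome, with its median of -0.32) and Bckdhb from 40.5 ± 3.02 to 30.7 ± 1.07 CPM (log2 -0.40 ± 0.10, edgeR adjusted p = 0.0339). The third, named after its value was seen, was Lias, the lipoyl synthase (-0.37).

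Carriers of threonine and glycine were split. Of 13, 3 rose and 6 fell between untreated stages, with Slc6a9, a glycine transporter of the cell surface, at 14.4 ± 5.45 and 3.93 ± 0.51 CPM (log2 -1.88, edgeR adjusted p = 0.000117) and Slc25a38, a mitochondrial glycine carrier, at 34.8 ± 6.94 and 10.8 ± 2.55 CPM (log2 -1.69, edgeR adjusted p = 1.63e-05). Between BPA stages 4 rose and 6 fell, with Slc36a1, a lysosomal amino acid carrier, at 1.75 and Slc25a38 at -1.45. Within PGCLCs 3 of 13 rose with BPA and 1 fell. Slc6a9 rose from 3.90 ± 0.51 to 8.87 ± 1.87 CPM (log2 1.18 ± 0.23, edgeR adjusted p = 0.0152) and Slc36a1 from 25.0 ± 5.41 to 41.9 ± 6.76 CPM (log2 0.74 ± 0.18, edgeR adjusted p = 0.0357). The other 2, named after their values were seen, were Slc38a2 (0.35) and Slc38a4 (-0.26). No gene of any of these lists passed the test for BPA in EpiLCs by edgeR.

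Across all 12 libraries, 11820 protein-coding genes were ranked by how closely their centred log2 CPM followed that of Tdh. The nearest were Sdc4, a syndecan (root mean square difference 0.139), Nacc2 (0.167), Rfx2, a transcription factor (0.176), Plcd1, a phospholipase C (0.178), and Porcn, which acylates Wnt proteins (0.201). Sdc4 stood at 9.46 to 11.8 CPM in EpiLC libraries and at 141 to 192 CPM in PGCLC libraries. The untreated stage differences of these 5 genes ran from 3.75 for Porcn to 4.05 for Nacc2 (log2), beside 3.90 for Tdh, and the 12 libraries share those 2 stages. For Gldc the nearest were Sepsecs, of selenocysteine synthesis (0.0715), Inpp5f (0.0721), Lamb1, a laminin chain (0.0733), Eif4ebp2, a translation repressor (0.0753), and Slc7a6, an amino acid carrier (0.0780). Inpp5f, like Gldc, was lowest of the EpiLC libraries in untreated replicate 3 (33.1 CPM) and lower in replicate 3 of the BPA arm (37.7 CPM) than in replicates 1 and 2 (54.8 and 53.6 CPM). All these genes were picked by likeness over the same 12 libraries, so the shared stage differences and replicate pattern follow from the selection.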

How the data were processed

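Gene expression was measured by strand-specific mRNA sequencing in 12 mouse libraries, 3 per group, grouped by the sample labels. Tools named in the submitters' processing notes are STAR, HTSeq, FastQC and bcl2fastq 2.19.1.403, with mm10 as the build; no strand setting was stated for the counting. The authors deposited counts in 1 file per library, in which each Ensembl gene has a whole number of reads. No gene under 10 counts is listed, so a gene missing from a library was read as 0 (at most 9 counts, or 0.262 to 0.764 CPM). Library sizes left out the rows of reads with no feature (4.42% to 10.7%) and of ambiguous reads (4.56% to 6.07%). The authors also deposited CPM in 1 table per stage, scaled separately and used here for 1 alternative. Of 21728 genes, 21695 were found in GENCODE M21.

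The edgeR 4.0.16 quasi-likelihood test (R 4.3.3) was run on counts kept by filterByExpr with TMM scaling, and p-values were Benjamini-Hochberg adjusted over every gene in the fit (threshold 0.05). BPA was tested within each stage (6 libraries), stage and interaction in 1 fit of 12 libraries. All member levels are CPM from that fit, while levels of related genes under BPA come from the fit of the stage. Standard errors are the log2 change over the root of F. In all EpiLC pairs of untreated and BPA libraries with the same replicate number, deviations from the group means correlated (0.15, 0.24 and 0.37). Pairs with different numbers were not compared, so these values cannot show whether the numbers pair libraries. The tests reported used no replicate block, and the fit with that block called 0 genes in EpiLCs, as without it.

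The members, the lists and the tests were chosen with earlier results of these data known. All 7 members are named, with up to 2 called genes per related list and comparison, those with the largest change at a mean of at least 1 CPM, and the 5 genes nearest to Tdh and to Gldc. No 2 replicates agreed within counting noise. The pipeline was tested on simulated data. Alternatives were scaling by RLE or by library size, no filter, a filter at 1 CPM in 3 libraries, DESeq2 1.42.0, limma 3.58.1 (voom, and trend on log2 of the deposited CPM plus 1), the replicate block, missing genes as 9 counts, BPA tested in the fit of 12, and leaving out every library once.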

Additional observations from a re-analysis of the deposited data

How the results depend on the processing

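The stage calls of Tdh and Amt held, in the same direction, under every alternative run, as did those of Gcat and Gcsh between untreated stages. In PGCLCs under BPA, leaving out 1 library gave 668 to 3206 genes called (2321 with all) and 0 to 4 members, the fewest genes without replicate 2, no member without replicate 1 or 2, and the most of both without replicate 3 of the BPA arm; 1243, 1110, 891 and 677 genes were called without untreated replicates 1, 2 and 3 and BPA replicate 1. DESeq2 called 4 members there (Gcat and Gldc added), and 16 genes in EpiLCs. Between BPA stages DESeq2 called 5 members, and leaving out 1 library gave 3 to 5, the 5 without untreated EpiLC replicate 3. The interaction called 897 genes by DESeq2, 141 by voom, 150 with the replicate block, 519 with missing genes as 9 counts and 83 to 767 with 1 library left out (232 in the fit as reported; 119, 83, 113 and 117 without untreated EpiLC replicate 1 and BPA EpiLC replicates 1, 2 and 3, 120 and 117 without BPA-arm PGCLC replicates 1 and 2, 767 without untreated EpiLC replicate 3 and 744 without BPA-arm PGCLC replicate 3). Among members it called 2 by DESeq2 and 0 to 1 with 1 library left out. The cause of these shifts was not tested.

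Signs turned for these differences, none of which passed the test as reported, though stage differences of Dld passed under some alternatives: -0.24 with RLE factors, -0.24 with DESeq2 and -0.19 without untreated EpiLC replicate 3 between BPA stages, and 0.27 with missing genes as 9 counts between untreated stages. In EpiLCs under BPA, Amt (0.00216) was -0.0121 with RLE factors, -0.0116 with DESeq2, -0.0138 in 1 fit of 12 libraries, -0.00217 with the 1 CPM filter and -0.0461 to 0.0395 with 1 library left out; Gldc ran from -0.00852 to 0.208 and Gcsh from -0.266 to 0.0533, both turning without untreated replicate 3. In PGCLCs under BPA, Tdh ran from -0.00783 to 0.0742 and Shmt1 from -0.0975 to 0.0218. Between untreated stages Dld was -0.0335 with RLE factors, -0.0333 with DESeq2 and -0.0205 to 0.0957 with 1 library left out, and Gldc was 0.148 with missing genes as 9 counts. Between BPA stages Dld was 0.106 with missing genes as 9 counts, Gldc was 0.374 there (past the threshold) and ran from -0.00210 to 0.212 with 1 library left out, Gcsh ran from -0.0326 to 0.296, and the interaction of Shmt1 ran from -0.0164 to 0.0861. With the replicate block the numbers of members called were 0, 2, 5, 3 and 0, the same as without it. Pairs with the same number across the PGCLC arms correlated by 0.067, 0.010 and -0.030, and pairs with different numbers were not compared there either. Genes under 10 counts in a library cannot be measured there; every member had at least 195 counts in every library.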
